A study of Caenorhabditis elegans with 48 samples.

Results

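The DREAM complex of *C. elegans* was followed through its 8 transcripts, *lin-35*, *efl-1*, *dpl-1*, *lin-9*, *lin-37*, *lin-52*, *lin-53* and *lin-54*, chosen by name as the pocket protein LIN-35 and its known partners. They are 8 of the 46911 genes counted, and all 8 are among the 15549 protein-coding genes that had more than 10 counts in at least 4 libraries and were tested. LIN-35 is the worm's only retinoblastoma (Rb) protein. It joins the E2F-like factor EFL-1, its DNA-binding partner DPL-1 and a MuvB core made of the other 5 products, and the complex represses cell cycle genes in resting cells and germline genes in the soma. Larvae that hatch without food stop in the first larval stage (L1 arrest), and loss of *lin-35* is known to shorten the time for which they survive.

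Messenger RNA was sequenced from whole L1 larvae of 4 strains in 3 conditions, with 4 replicates in each of the 12 groups and 48 libraries in all. Every strain carried the plant F-box protein TIR1, under the *eft-3* promoter in the soma (*Peft-3::TIR1*, strain CA1200) or under the *gld-1* promoter in the germline (*Pgld-1::TIR1*, strain CA1352). A pair of further strains also carried *ama-1::AID*, a degron on the large subunit of RNA polymerase II, and are called here the soma degron strain (*Peft-3::TIR1; ama-1::AID*, LRB389) and the germline degron strain (*Pgld-1::TIR1; ama-1::AID*, LRB387). With auxin, TIR1 targets the tagged subunit for degradation, so that auxin removes polymerase in the tissue that expresses TIR1. Larvae were collected after 36 h of arrest, before any treatment, or after 132 h, in which case 100 µM auxin or its solvent ethanol went in at 36 h and stayed for 96 h. Each library came from 1 flask of about 10000 pooled embryos, and the soma degron strain grew more slowly than the others and was set up from adults rather than L4 larvae. Levels are given as CPM, in which the counts of a gene are divided by all gene counts of its library and scaled to a common total. A lower level in whole larvae can come from fewer cells of a type or from less RNA per cell, and these cannot be told apart.

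Libraries held 5755041 to 18052333 counts on genes (median 11040338), of which ribosomal RNA took 1.90% to 27.6%. The degron acts on the protein, so the *ama-1* transcript is no check of degradation. Its level was 999 ± 139 CPM (SD, n = 4) with auxin in the soma degron strain and 454 ± 145 CPM with ethanol. Per 1000 spike-in counts it was 22.8 ± 8.67 with auxin and 25.2 ± 12.1 with ethanol. One library stood apart. Replicate 4 of the soma degron strain with auxin had the highest share of spike-in counts (8.33%), 412 CPM summed over 6 oocyte and eggshell markers against 3.88 to 92.8 CPM in the other 47 libraries, and 485 CPM over 4 germ cell markers against 13.1 to 241 CPM. The same soma degron library was also highest for epidermis markers (130 CPM, the others 51.8 to 103) and early embryo markers (9.22 CPM, the others 0 to 3.98). Its sums of adult yolk markers (7.08 CPM, the others 0.952 to 219) and sperm markers (0 CPM, the others 0 to 18.8) were not high. With ethanol in Pgld-1::TIR1, spike-ins took 6.41% of replicate 4 and 1.69% to 2.09% of the other 3. That library also had the highest sum of adult yolk markers of all 48 libraries (219 CPM). Its oocyte and eggshell markers summed to 46.3 CPM, against 21.8 to 28.6 CPM in the other 3. Its germ cell markers (140 CPM) lay within the 109 to 166 CPM of the other 3. All marker genes of muscle, intestine, epidermis, neurons and pharynx were detected in every group. The calls of members that rest on these libraries are given with and without them. For the cell cycle and germline lists below, only the counts of called genes are.

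The 8 genes lie on 5 chromosomes of the WBcel235 assembly and all are protein-coding. The pocket protein gene *lin-35* (WBGene00003020) is on chromosome I at 5807709 to 5815637, on the plus strand, with 10 exons. The E2F-like *efl-1* (WBGene00001161) is on V at 16958590 to 16965675, and *dpl-1* (WBGene00001061) on II at 9169910 to 9172565. Of the MuvB genes, 3 are on III: *lin-9* (WBGene00002998) at 8900237 to 8904131, *lin-37* (WBGene00003022) at 7070890 to 7072552 and *lin-52* (WBGene00003035) at 9824083 to 9824750. The other two are *lin-53* (WBGene00003036), on I at 9618196 to 9619760, and *lin-54* (WBGene00003037), on IV at 13241044 to 13243401. The library kit did not mark strand, so reads from overlapping genes on opposite strands cannot be assigned with certainty. *lin-52* shares 50 exon bases, 8.8% of its exon length, with *arl-5*, and *lin-35* shares 29, or 0.9%, with *hmg-3*. *lin-53* has a close relative, *rba-1*, with which reads may be exchanged.

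Compared per length of exon, the transcripts of the complex were not equally abundant. *lin-53*, whose product is a histone-binding protein shared with other chromatin complexes, had a mean of 49.5 RPKM (CPM per kilobase of exon) over the 12 groups and was the highest of the 8 in 45 of 48 libraries. *lin-37*, which acts in repression by the complex, followed at 21.1 RPKM and *lin-52*, which links the pocket protein to the core, at 18.95 RPKM. The order of these 2 genes differed between 36 h and 132 h with ethanol. *lin-52* had the higher mean in all 4 groups at 36 h (13.7 to 16.8 RPKM, against 10.4 to 11.8 RPKM for *lin-37*), and *lin-37* in all 4 groups at 132 h with ethanol (21.5 to 28 RPKM, against 14.5 to 18 RPKM). The other 5 had similar levels, from 12.4 RPKM for *lin-35* through *efl-1* (11.9), *lin-9* (11.8) and *lin-54* (10.8) to *dpl-1* (9.94 RPKM). Over the group means, the highest level of a gene was 2.97 (*lin-9*) to 4.52 (*lin-54*) times its lowest. All 48 libraries held at least 29 counts of each gene, the smallest being those of *efl-1* and *lin-54*.

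**Figure D1:**
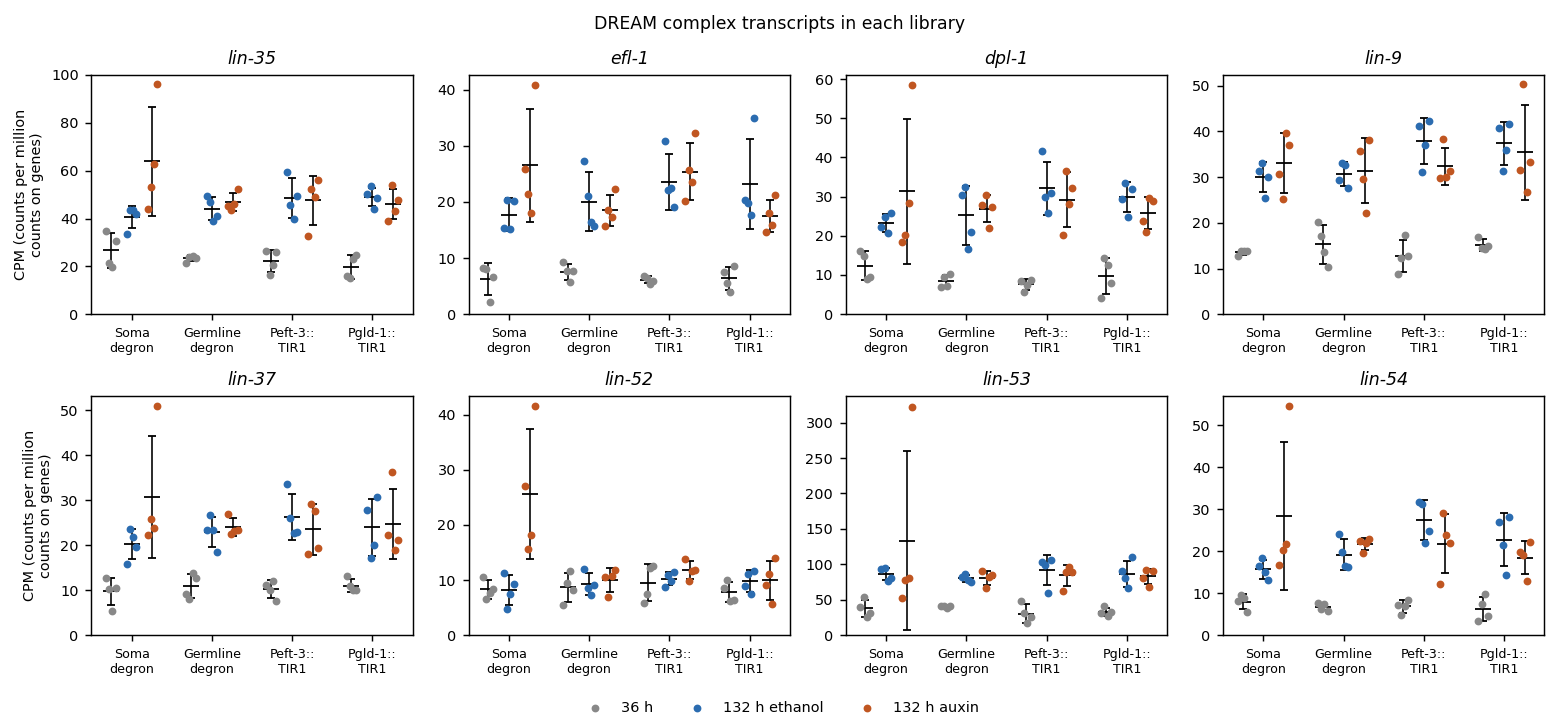
Level of each DREAM transcript in CPM (vertical axis, each panel on its own scale from 0) in the 4 strains at 36 h (grey), 132 h with ethanol (blue) and 132 h with auxin (orange). Points are libraries, 4 per group, and horizontal marks with bars are the mean and SD. Grey points lie below blue points in most panels but not for *lin-52*, and replicate 4 of the soma degron strain with auxin is the highest point for *lin-53*, at 322 CPM.

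The 12 groups fell into the same broad order for 7 of the 8 genes, with the 4 groups at 36 h lowest. For *lin-35* the mean levels ran from 64.0 ± 22.8 CPM (SD, n = 4 here and below) in the soma degron strain with auxin through 49.1 ± 3.83 CPM in Pgld-1::TIR1 and 48.7 ± 8.37 CPM in Peft-3::TIR1, both with ethanol. Next came Peft-3::TIR1 (47.6 ± 10.3 CPM), the germline degron strain (46.9 ± 3.86 CPM) and Pgld-1::TIR1 (46.04 ± 6.45 CPM), all with auxin. The germline and soma degron strains with ethanol had 44.2 ± 4.93 and 40.7 ± 4.74 CPM. At 36 h the soma degron strain had 26.6 ± 7.26 CPM, the germline degron strain 23.3 ± 1.24 CPM, Peft-3::TIR1 22.4 ± 4.67 CPM and Pgld-1::TIR1 19.8 ± 4.98 CPM. Every neighbouring pair in this order had overlapping libraries, including the step between 132 h and 36 h, which is within the soma degron strain.

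For *efl-1*, *dpl-1*, *lin-9*, *lin-37*, *lin-53* and *lin-54* the lowest group at 132 h did not overlap the highest at 36 h. At that step *efl-1* went from 7.55 ± 1.44 to 17.5 ± 2.87 CPM, *dpl-1* from 12.4 ± 3.68 to 23.4 ± 2.31 CPM and *lin-9* from 15.3 ± 4.29 to 29.97 ± 3.25 CPM. Likewise *lin-37* went from 11.05 ± 1.42 to 20.2 ± 3.36 CPM, *lin-53* from 40.8 ± 1.33 to 80.3 ± 4.70 CPM and *lin-54* from 8.04 ± 1.78 to 15.8 ± 2.25 CPM. All other neighbours overlapped for these genes, with 1 exception: for *lin-9* at 36 h, Pgld-1::TIR1 (15.1 ± 1.26 CPM) lay apart from the soma degron strain (13.5 ± 0.607 CPM). The soma degron strain with auxin had the highest mean for every gene except *dpl-1* and *lin-9*, which were highest in Peft-3::TIR1 with ethanol at 32.1 ± 6.77 and 37.9 ± 5.04 CPM. For *efl-1*, *lin-37*, *lin-53* and *lin-54* that rank rested on replicate 4. The other 3 libraries averaged 21.8, 23.95, 70.4 and 19.7 CPM, below the 23.6, 26.3, 92.3 and 27.4 CPM of Peft-3::TIR1 with ethanol, and for *lin-53* below every other group at 132 h. For *lin-35* and *lin-52* the mean of the other 3, 53.3 and 20.3 CPM, was still the highest.

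*lin-52* had another order. It was at 25.6 ± 11.7 CPM in the soma degron strain with auxin, and no library of that group overlapped the next one, Peft-3::TIR1 with auxin (11.8 ± 1.60 CPM). The remaining 10 groups lay between 7.80 ± 1.78 CPM (Pgld-1::TIR1 at 36 h) and 10.2 ± 1.18 CPM (Peft-3::TIR1 with ethanol), each overlapping its neighbour, with groups of both times mixed. Over the 12 group means of log2(CPM + 1), the Pearson correlation of 2 members was 0.943 to 0.983 wherever *lin-52* was not one of them, and 0.410 to 0.618 where it was. These are descriptions over 12 groups that share strains and, within a replicate, plates bleached in parallel. The 5 tested genes most like *lin-35* by the same measure, of 15548, were *mat-2* (r = 0.992), *mut-7* (0.991), *F13G3.7* (0.991), *gpaa-1* (0.991) and *pqn-27* (0.991).

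Starvation from 36 h to 132 h with ethanol was accompanied by higher relative levels of most of the complex in all 4 strains. Larvae at 36 h had received no ethanol. Time in arrest and exposure to ethanol therefore cannot be told apart here, also where this comparison is called time below. By edgeR's quasi-likelihood test, with p adjusted over all tested genes after Benjamini and Hochberg, 4 of 8 transcripts rose in the soma degron strain and 7 of 8 in each of the other strains. None fell, and *lin-52* was not called in any strain. The share of all tested genes that rose was 15.2% in the soma degron strain, 17% in the germline degron strain, 20.5% in Peft-3::TIR1 and, for Pgld-1::TIR1, 18.8%. The share that fell was 23.9% in Peft-3::TIR1 and, for Pgld-1::TIR1, 19.4%, and the shares called in either direction in the 4 strains were 30.2%, 34.2%, 44.4% and 38.3%. The median log2 fold change of the 8 was 0.67, 0.73, 1.16 and 0.84 in these strains in the same order, where that of all tested genes was -0.01, -0.00, -0.11 and -0.01. Markers of tissues moved over the same interval. Over the 4 strains, the 5 intestine markers summed to 10493 to 16786 CPM at 36 h and 227 to 679 CPM at 132 h with ethanol, the 4 muscle markers to 9472 to 18661 and 1523 to 4630 CPM, and the 4 germ cell markers to 13.1 to 79.1 and 109 to 178 CPM. Their part in the rise of the members was not tested.

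**Figure D2:**
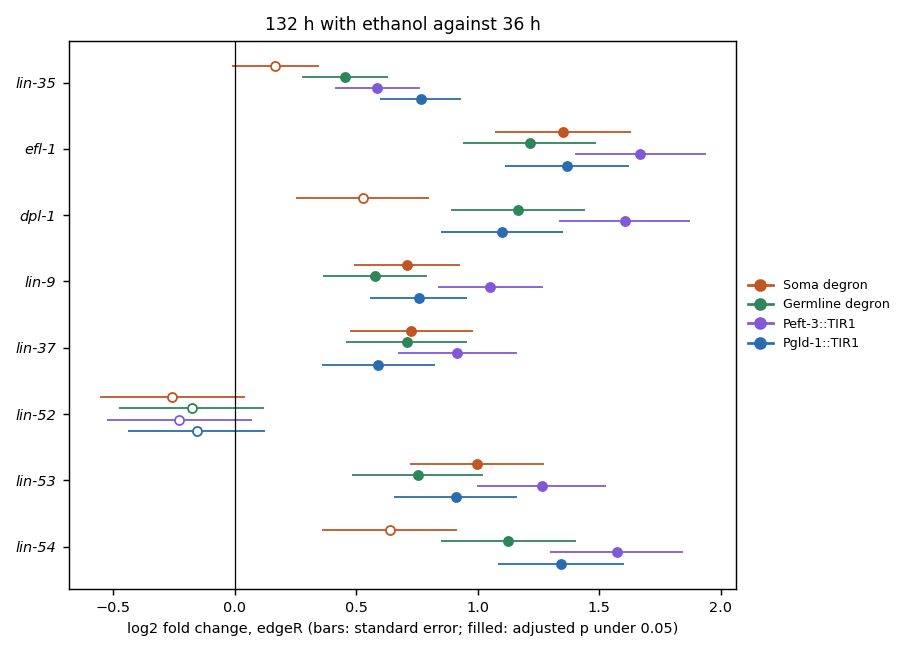
Log2 fold change (horizontal axis) of each DREAM transcript at 132 h with ethanol against 36 h, in the 4 strains by colour, from edgeR with 4 libraries per group. Bars are standard errors and filled points have an adjusted p under 0.05. All 4 points of *lin-52* are open and lie between -0.26 and -0.16, and those of *efl-1* are filled and lie between 1.21 and 1.67.

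The E2F-like gene *efl-1* rose in all 4 strains. In Peft-3::TIR1 its 4 libraries had 6.81, 6.37, 5.34 and 5.95 CPM at 36 h and 30.8, 22.1, 22.6 and 19.1 CPM at 132 h with ethanol. Every library at 132 h was above every library at 36 h. The log2 fold change was 1.67 (SE 0.27, adjusted p = 1.25e-06 by edgeR), and it was 1.35 in the soma degron strain, 1.21 in the germline degron strain and 1.37 in Pgld-1::TIR1. Its partner *dpl-1* had log2 fold changes of 0.53, 1.17, 1.60 and 1.10 in the soma degron strain, the germline degron strain, Peft-3::TIR1 and Pgld-1::TIR1, the first not past the threshold (adjusted p = 0.148 by edgeR).

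*lin-35* itself rose less. In Pgld-1::TIR1 its libraries went from 16.02, 15.1, 23.2 and 24.9 CPM at 36 h to 50.1, 53.4, 44.1 and 48.7 CPM at 132 h with ethanol, and in Peft-3::TIR1 from 26.3, 16.5, 20.6 and 25.9 CPM to 59.6, 45.8, 39.7 and 49.6 CPM. In both strains all libraries at 132 h lay above all at 36 h. The log2 fold changes were 0.76 (SE 0.17, adjusted p = 0.000202 by edgeR) and 0.59 (SE 0.18, adjusted p = 0.00529). In the germline degron strain it was 0.45 (SE 0.18, adjusted p = 0.0422 by edgeR), and *lin-35* was called in 11 of 20 alternative settings. With the replicate number as a block the adjusted p was 0.0712 by edgeR. In the soma degron strain the libraries had 34.95, 21.5, 19.7 and 30.4 CPM at 36 h and 33.6, 43.4, 43.6 and 42.03 CPM with ethanol. There the lowest library at 132 h, replicate 1, fell inside the range at 36 h. The log2 fold change was 0.17 (SE 0.18, adjusted p = 0.536 by edgeR). Whether the strains differed in this change was not tested.

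Of the MuvB core, *lin-53*, *lin-9* and *lin-37* rose in all 4 strains. The log2 fold changes of *lin-53* were 1.00, 0.75, 1.26 and 0.91, in the order soma degron, germline degron, Peft-3::TIR1 and Pgld-1::TIR1. Those of *lin-9*, a scaffold of the core, were 0.71, 0.58, 1.05 and 0.76, and those of *lin-37* 0.73, 0.71, 0.91 and 0.59. Some of these calls were lost under other settings. In the germline degron strain *lin-53* was called in 11 of 20 alternatives, not among them the fit without W1 (adjusted p = 0.0863 by edgeR), and *lin-9* and *lin-37* in 13 each. *lin-37* was also called in 13 of 20 in the soma degron strain and in Pgld-1::TIR1. *lin-54*, which binds DNA, had 0.64, 1.13, 1.57 and 1.34, and did not pass the threshold in the soma degron strain (adjusted p = 0.0782 by edgeR). For *lin-52* the soma degron strain had 10.6, 6.60, 7.71 and 8.40 CPM at 36 h and 11.3, 4.81, 7.52 and 9.29 CPM at 132 h. The groups overlapped in every strain, and the log2 fold changes of *lin-52* were -0.26, -0.18, -0.23 and -0.16 with standard errors of 0.28 to 0.30.

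The size of these rises depended on what they were measured against. In CPM the median tested gene was 1.30 to 1.47 times higher at 132 h with ethanol than at 36 h, and the median member 2.02 to 2.99 times. Libraries of the 2 times did not overlap in CPM for 6 of 8 members in the soma degron strain, where 26.2% of tested genes did so upwards. They did not overlap for 7 of 8 in each of the other strains, against 28.9%, 30.7% and 31.8% of tested genes in the germline degron strain, Peft-3::TIR1 and Pgld-1::TIR1. Spike-ins had been added in proportion to total RNA, and against them the median gene was 1.39 to 1.81 times higher. Values on the spike-in scale are therefore levels per amount of total RNA and not per larva. The study reports that total RNA per larva fell between these times. Whether any level rose per larva was not tested. On the spike-in scale the median member was 2.42 to 4.06 times higher, and *lin-35* in the soma degron strain passed the threshold (log2 fold change 1.07, adjusted p = 0.0176 by edgeR without W1). In Pgld-1::TIR1 the libraries of both times overlapped on this scale for 7 of 8 members. In each case only replicate 4 with ethanol, the library with a high spike-in share, reached down to the range at 36 h. For *lin-35* it had 0.712 counts per 1000 spike-in counts, the other ethanol libraries 2.50 to 2.85, and those at 36 h 0.512 to 1.40. The median member of Pgld-1::TIR1 was 2.42 times higher, against 2.55 in CPM. In the other strains as many members lay apart as in CPM. Without replicate 4 of Pgld-1::TIR1 with ethanol, 6 members were called in Pgld-1::TIR1 and 4 in the germline degron strain. Leaving out each replicate number in turn gave 2 to 3 calls in the soma degron strain, 3 to 5 in the germline degron strain, 7 in Peft-3::TIR1 and, for Pgld-1::TIR1, 4 to 7. The lowest count came without replicate 3 in the soma degron strain, without 3 or 4 in the germline degron strain and without 4 in Pgld-1::TIR1.

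Auxin was set against ethanol at 132 h to ask how the transcripts stood after 96 h of auxin. Only the degron strains carry the tagged polymerase subunit that auxin targets. In the soma degron strain *lin-35* and *lin-52* rose relative to other transcripts, 2 of 8 members, where 13.3% of tested genes rose and 16.1% fell. None of the 8 fell on this scale. The median log2 fold change of the members was 0.41 and that of all tested genes 0.11. From ethanol to auxin the summed intestine markers went from 366 to 590 CPM up to 2011 to 3444 CPM, and the muscle markers from 2945 to 4630 CPM down to 1230 to 2175 CPM. Their part in the levels of *lin-35* and *lin-52* was not tested. This comparison shares its ethanol libraries with the comparison of times above.

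The libraries of *lin-52* had 11.3, 4.81, 7.52 and 9.29 CPM with ethanol and 27, 15.7, 18.1 and 41.6 CPM with auxin. Replicate 4 was the highest of the auxin libraries, and the lowest of them was above all ethanol libraries. The log2 fold change was 1.34 (SE 0.34, adjusted p = 0.00203 by edgeR). Without replicate 4 with auxin it was 1.27 (adjusted p = 0.00335). The overlapping *arl-5* had 10.5 ± 1.79 CPM with ethanol and 15.0 ± 9.05 CPM with auxin, and its part in the counts of *lin-52* was not tested.

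*lin-35* had 33.6, 43.4, 43.6 and 42.03 CPM with ethanol and 43.9, 53.0, 63.0 and 96.1 CPM with auxin. The groups did not overlap, although the lowest auxin library and the highest ethanol library were close, and replicate 4 again was the highest. The log2 fold change was 0.74 (SE 0.20, adjusted p = 0.00378 by edgeR), and 0.68 without replicate 4 with auxin (adjusted p = 0.00648). Without replicate number 2 in every group *lin-35* was no longer past the threshold and *lin-52* alone was called. The neighbour *hmg-3*, whose exons overlap those of *lin-35*, had 22.4 ± 6.32 CPM with ethanol and 74.4 ± 76.8 CPM with auxin, where 1 library, at 189 CPM, held more than the other 3 together. Its part in the counts of *lin-35* was not tested. In CPM, 2 of 8 members lay higher without overlap, *lin-35* and *lin-52*, against 14.8% of tested genes.

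**Figure D3:**
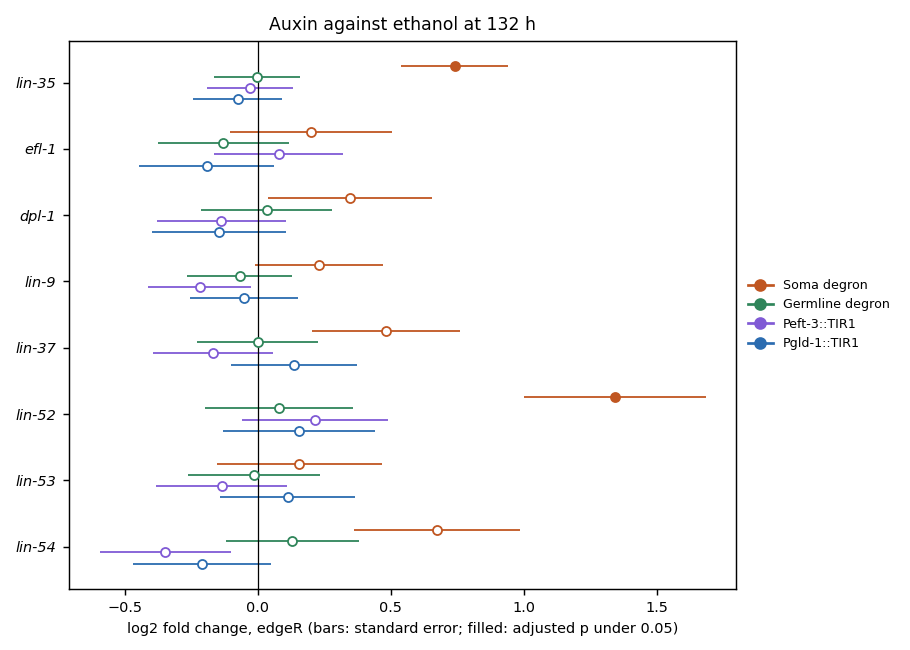
Log2 fold change (horizontal axis) of each DREAM transcript with auxin against ethanol at 132 h, in the 4 strains by colour, from edgeR with 4 libraries per group. Bars are standard errors and filled points have an adjusted p under 0.05. The filled points are *lin-35* (0.74) and *lin-52* (1.34) in the soma degron strain.

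The other 6 members did not pass the threshold in the soma degron strain. *lin-54* had a log2 fold change of 0.67 (SE 0.31, adjusted p = 0.0977 by edgeR) and *lin-37* one of 0.48 (SE 0.28, adjusted p = 0.197), and *dpl-1*, *lin-9*, *efl-1* and *lin-53* had 0.35, 0.23, 0.20 and 0.16. For *lin-53* the libraries with ethanol had 93.0, 94.9, 76.8 and 80.7 CPM and those with auxin 52.0, 77.9, 81.3 and 322 CPM. Replicate 4 with auxin stood far above, and the other 3 lay within or below the range of the ethanol libraries. Without that library the log2 fold change of *lin-53* was -0.21 (adjusted p = 0.561). Replicate 4 was 2.77 times the mean of the other 3 for *lin-54*, 2.62 times for *dpl-1* and 1.80 times for *lin-35*, where it was 1.16 times for *lin-9*. Its oocyte and germ cell markers are given above, and their part in these values was not tested.

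The covariate W1, a factor estimated on the spike-ins, differed between the groups compared, with a mean of -0.10 with ethanol and 0.23 with auxin. Without it, 4 members were called higher: *lin-35* (0.67), *lin-37* (0.60), *lin-52* (1.62) and *lin-54* (0.81), where 20.7% of tested genes rose, 21.4% fell and 42.2% did either. In a fit of the 8 compared libraries alone, with W1, edgeR called no member and 340 genes higher and 311 lower. W1 also differed by time in every strain, with group means of 0.0535 to 0.122 at 36 h and -0.100 to -0.0185 at 132 h with ethanol. For time, fits of the compared libraries alone, with W1, called 1, 0 and 3 members in the soma degron strain, the germline degron strain and Peft-3::TIR1.

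Against the spike-ins the direction was another one. Spike-in shares were 2.58% to 8.33% with auxin and 1.50% to 2.44% with ethanol in the soma degron strain, and the median tested gene had a log2 fold change of -1.25 when library size was taken from spike-in counts. On that scale *lin-35* had 1.35, 2.30, 2.33 and 2.77 counts per 1000 spike-in counts with ethanol and 0.910, 2.00, 1.52 and 1.06 with auxin. The groups overlapped. The log2 fold change was -0.67 (adjusted p = 0.108 by edgeR). *lin-52* had 0.452, 0.255, 0.401 and 0.611 per 1000 with ethanol and 0.560, 0.593, 0.436 and 0.458 with auxin, and a log2 fold change of 0.25 (adjusted p = 0.618). *dpl-1* (-1.01), *lin-9* (-1.11) and *lin-53* (-0.93) fell on this scale, with adjusted p of 0.0242, 0.0107 and 0.0181, where 52.4% of tested genes fell and 2.67% rose.

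**Figure D4:**
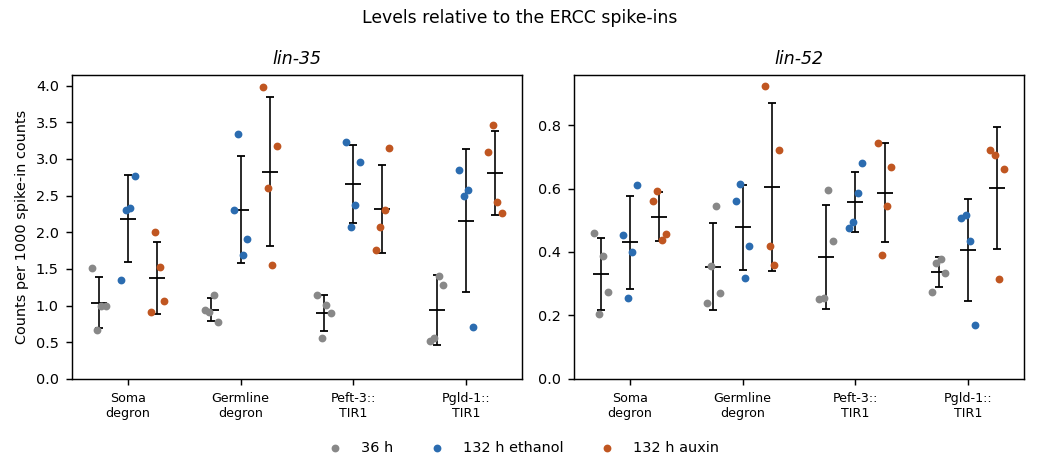
Counts of *lin-35* and *lin-52* per 1000 counts on the ERCC spike-ins (vertical axes from 0) in the 4 strains at 36 h (grey), 132 h with ethanol (blue) and 132 h with auxin (orange). Points are libraries, 4 per group, with mean and SD. In the soma degron strain the auxin points of *lin-35* lie between 0.910 and 2.00 and overlap the ethanol points, and those of *lin-52* overlap as well.

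In the other 3 strains no member was called with auxin against ethanol, and no tested gene was either (0%). At an unadjusted p under 0.05 by edgeR, 230 genes passed in the germline degron strain, 720 in Peft-3::TIR1 and, for Pgld-1::TIR1, 502, none of them a member. DESeq2 with W1 called 3 genes higher and 2 lower, 11 and 5, and 4 and 5 in these strains, again without a member. *lin-35* had log2 fold changes of -0.00, -0.03 and -0.08 with standard errors of 0.16 to 0.17, and *lin-52* had 0.08, 0.22 and 0.15 with 0.27 to 0.29. For *lin-35* in the germline degron strain the libraries had 49.5, 47.01, 39.03 and 41.04 CPM with ethanol and 45.3, 43.7, 46.2 and 52.5 CPM with auxin. In CPM the groups overlapped for all 8 genes in all 3 strains. Per 1000 spike-in counts they overlapped as well, except for *lin-54* in Peft-3::TIR1, which lay lower with auxin, as did 1.58% of tested genes.

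The difference between strains was tested directly. The effect of auxin on *lin-35* was larger in the soma degron strain than in Peft-3::TIR1 by 0.77 on the log2 scale (SE 0.25, adjusted p = 0.0243 by edgeR), 1 of 8 members, where 8.31% of tested genes had a larger effect, 12.5% a smaller one and 20.8% either. For *lin-52* the difference was 1.13 (SE 0.43, adjusted p = 0.0575) and for *lin-54* 1.02 (SE 0.39, adjusted p = 0.0560), both short of the threshold. Without W1 all 3 passed. The difference for *lin-35* was 0.71 without replicate 4 of the soma degron strain with auxin (adjusted p = 0.0344), and lost its call when replicate number 1, 2 or 4 was left out of every group (*lin-52* was called without number 1). With library size from spike-in counts it was -0.47 (adjusted p = 0.498). Between the germline strains no member and no gene (0%) differed in the effect of auxin, 466 genes having an unadjusted p under 0.05 and DESeq2 with W1 calling 5 larger and 1 smaller, none of them a member.

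Set against 36 h, which uses the same auxin libraries, all 8 members were higher after 132 h with auxin in the soma degron strain. Time, ethanol and auxin differ together in this comparison and cannot be told apart. The log2 fold changes ran from 0.87 for *dpl-1* to 1.55 for *efl-1*, with 1.08 (SE 0.29, adjusted p = 0.00167 by edgeR) for *lin-52* and 0.91 (SE 0.17, adjusted p = 1.67e-05) for *lin-35*, where 23.8% of tested genes rose and 24.2% fell. Without replicate 4 with auxin all 8 were still called, with smaller values for *lin-53* (0.66 in place of 1.15), *dpl-1* (0.64 in place of 0.87) and *lin-54* (1.06 in place of 1.31). With library size from spike-in counts only *efl-1* remained called (1.24, adjusted p = 0.00745), and the median tested gene fell by 0.40 on the log2 scale.

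Each degron strain was set against its TIR1 parent without auxin, a comparison called the tag below. The soma degron strain grows more slowly without auxin, and the study proposes some degradation of AMA-1 without auxin. The tag, such degradation and the other set-up of that strain cannot be told apart here. At 36 h no member was called in either pair, where 0.225% of tested genes were called in the soma strains (0.167% higher and 0.0579% lower) and 0.00643% in the germline strains. At an unadjusted p under 0.05 by edgeR, 1222 and 853 genes passed, and *dpl-1* was among those of the soma strains (log2 fold change 0.65, adjusted p = 0.434). DESeq2 with W1 called 80 genes higher and 34 lower in the soma strains and 6 and 13 in the germline strains, none a member. At 132 h with ethanol 1 of 8 members was called in the soma strains, *lin-54*, where 5.9% of tested genes were lower and 6.63% higher. *lin-54* had 16.4, 18.5, 15.0 and 13.2 CPM in the soma degron strain and 31.7, 31.2, 22.04 and 24.8 CPM in Peft-3::TIR1. The groups did not overlap. The log2 fold change was -0.76 (SE 0.25, adjusted p = 0.0346 by edgeR), and the call was lost when any 1 replicate number was left out. *dpl-1* also lay lower without overlap in CPM, which 8.58% of tested genes did, with a log2 fold change of -0.43 (adjusted p = 0.283). In the germline strains at 132 h no member was called (0.00643% of genes were), 404 genes had an unadjusted p under 0.05, and DESeq2 with W1 called 1 gene higher and 2 lower, none a member.

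Genes that act with the complex, or that it is known to repress, were described as lists, and their counts stand beside the 13.3% of all tested genes that rose and the 16.1% that fell with auxin in the soma degron strain. With auxin against ethanol in the soma degron strain, 5 of 11 other synMuv B genes, which work in parallel with DREAM in repressing transcription, rose and 1 fell. *hpl-2*, a heterochromatin protein 1, rose by 0.92 (SE 0.28, adjusted p = 0.00896 by edgeR), *lin-13*, a zinc finger protein, by 0.66 and *met-2*, a histone H3 lysine 9 methyltransferase, by 0.56, and *let-418*, a Mi-2 ATPase, fell by 0.48. Of 4 synMuv A genes, which are redundant with synMuv B genes in vulval development, 3 rose: *lin-15A* (1.03), *lin-56* (0.83) and *lin-38* (0.65). None of 3 paralogs of members was called, *efl-2*, *efl-3* and *rba-1* having -0.47, -1.42 and 0.10. The medians of these lists were 0.44, 0.74 and -0.47, beside 0.11 over all tested genes.

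Among 9 regulators of Rb and of the G1 phase, 2 rose and 1 fell. *cyd-1*, the cyclin D that with CDK-4 phosphorylates LIN-35, went from 13.5 to 4.46 CPM, a log2 fold change of -1.95 (SE 0.42, adjusted p = 0.000318 by edgeR). *fzr-1*, the Cdh1 activator of the anaphase-promoting complex, rose by 0.66 and *cdc-14*, a phosphatase, by 0.47. Of 22 cell cycle genes of the kind that DREAM represses, 6 rose and none fell. They include *mcm-5*, a subunit of the replicative helicase, with 25.3 CPM with ethanol and 156 CPM with auxin (log2 fold change 2.21, SE 0.37, adjusted p = 6.88e-06 by edgeR). *air-1*, the Aurora A kinase, rose by 2.05 and *cyb-1*, a cyclin B, by 1.63. Of 11 germline genes, 6 rose and none fell, among them the P granule helicase *glh-4* (2.16), the meiotic axis gene *htp-3* (2.10) and *pgl-1* (1.67), a P granule component. The medians were 0.49, 1.01 and 1.42, beside 0.11 over all tested genes. Values of the genes named from these lists include replicate 4 with auxin. Which of their calls hold without it is not given.

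These last 2 lists moved with the markers of other cells. The 4 germ cell markers, of which *glh-1* and *pgl-1* are also in the germline list, summed to 112 to 178 CPM with ethanol and 140 to 485 CPM with auxin in the soma degron strain. The 6 oocyte and eggshell markers summed to 21.9 to 38.2 CPM and 51.6 to 412 CPM, and none of either list was at 0 in all libraries of these groups. Without replicate 4 with auxin, 4 of 22 cell cycle genes and 3 of 11 germline genes were called higher, and without W1, 18 of 22 and 5 of 11, with 1 germline gene lower, where 20.7% of all tested genes rose. The part of these markers in the lists was not tested. The lists were chosen with results of these data known and are given as a description.

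From 36 h to 132 h with ethanol, 15.2%, 17%, 20.5% and 18.8% of all tested genes rose in the 4 strains, as given above. The other synMuv B genes rose in 5, 5, 6 and 5 of 11 cases in the soma degron strain, the germline degron strain, Peft-3::TIR1 and Pgld-1::TIR1, and none fell. *let-418* had log2 fold changes of 1.04, 0.99, 1.26 and 0.96 in these strains. Of the 22 cell cycle genes 2, 5, 8 and 7 rose and none fell, the first a smaller share than that of all tested genes. *cdc-6*, which loads the replicative helicase, rose in all 4 strains (1.27, 1.61, 1.85 and 1.16). Of the 9 Rb and G1 regulators 1, 0, 1 and 1 rose and 2, 3, 4 and 3 fell. *cdc-14* fell by 0.77, 0.89, 1.19 and 0.88 on the log2 scale, and *cki-1*, an inhibitor of cyclin-dependent kinases, rose in 3 strains (soma degron 0.72, Peft-3::TIR1 0.90, Pgld-1::TIR1 0.56). Of the 11 germline genes 2, 3, 3 and 5 rose and none fell, with *glh-1* at 1.49, 2.33, 2.02 and 2.01.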

How the data were processed

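ERCC spike-ins were added by the authors according to the total RNA of each sample. They made poly-A libraries with an unstranded kit and a number of PCR cycles that depended on a batch not given per library, mapped pairs of 50 bp reads with Bowtie 1.2.2 to the WS273 genome with the spike-ins and counted with HTSeq 0.11.2. The deposited files hold raw counts for 46911 genes and 92 spike-ins per library. CPM, RPKM and counts per 1000 spike-in counts were computed from them. Names and positions came from Ensembl release 115 (WBcel235), which held 46857 of the identifiers.

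The 15549 protein-coding genes that exceeded 10 counts in 4 or more libraries were fitted over all 48 libraries with edgeR 4.0.16 (R 4.3.3), upper-quartile normalization and W1, the first factor over 62 spike-ins. The study's methods name the likelihood ratio test (edgeR 3.24.4 per the labels), and the quasi-likelihood test was used here. Genes with an adjusted p under 0.05 were called. The fit was tested on simulated data. Alternatives were TMM, spike-in library sizes, DESeq2 1.42.0, other filters, a replicate block, the compared libraries alone, and leaving out replicates. P-values measure the spread between flasks.

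The named genes are the 8 members, *ama-1*, at most 3 called genes with the largest log2 fold change of each list in the comparison described, and the 5 genes most correlated with *lin-35*. *let-418*, the paralogs, and the genes followed across all strains from 36 h to 132 h were named after their values were seen. Members and lists were chosen with earlier results of these data known.

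Plates of all strains were bleached in parallel for each biological replicate, per the study's methods. Replicate numbers may therefore pair the libraries, but the labels do not state that equal numbers share a bleach. The main fit had no term for the replicate number, which entered as a block in alternatives only. The mean correlation of deviations from group means was 0.0490 for 264 pairs with the same number and -0.0162 for 792 pairs with different numbers. It was 0.0313 for the 48 pairs with the same number and the same strain. Within a group, 72 pairs of replicates gave a chi-squared per degree of freedom of 7.92 to 97.7, so none was a repeat of another.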

Additional observations from a re-analysis of the deposited data

Results flagged for a closer look

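Of 96 sets of 4 libraries (8 genes in 12 groups), 8 had 1 library apart from the other 3 by more than Dixon's critical value, and chance gives about 1 in 20. In the soma degron strain with auxin, replicate 4 was highest for *lin-37* (51.0 CPM, the others 22.4 to 25.7), *lin-53* (322 CPM, the others 52.0 to 81.3) and *lin-54* (54.5 CPM, the others 16.8 to 21.9). In the same strain with ethanol, replicate 1 was lowest for *lin-35* (33.6 CPM, the others 42.03 to 43.6), and at 36 h for *lin-9* (12.6 CPM, the others 13.8 to 13.9). *efl-1* was highest in replicate 4 of Pgld-1::TIR1 with ethanol (35.03 CPM, the others 17.7 to 20.4), the library with a high spike-in share. In Peft-3::TIR1, *lin-9* was highest in replicate 2 with auxin (38.4 CPM, the others 29.9 to 31.3) and *lin-53* lowest in replicate 3 with ethanol (60.3 CPM, the others 99.7 to 106).

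The effect of auxin on *lin-35* differed between the soma degron strain and Peft-3::TIR1 by 0.77 on the log2 scale in the test of the difference itself. With library size from spike-in counts it was -0.47 (adjusted p = 0.498 by edgeR), and the call was lost without replicate number 1, 2 or 4.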

How the results depend on the processing

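Of 2400 values of the 8 members under 20 alternatives, 2275 kept their direction where called and their side of the threshold, 87 lost their call, 36 gained one and 2 reversed. Library size from spike-in counts gave log2 fold changes of -0.67 for *lin-35* with auxin in the soma degron strain and -0.47 for its difference from Peft-3::TIR1, and a ratio of mean levels of 0.628. There 3 members were called with auxin, all lower, 7 with time in the soma degron strain, 1 for auxin against 36 h, and 0 for the tag at 132 h and the difference between strains. With auxin in the soma degron strain, 4 members were called without W1 (upper quartile or TMM), 6 by DESeq2 without W1, 5 with a replicate block without W1 and 0 with W1 from the compared libraries alone. The difference between soma strains called 3 members without W1 (upper quartile or TMM), by the likelihood ratio test, by DESeq2 with W1, at more than 50 counts, with a replicate block without W1 and in the compared libraries without W1, 4 by DESeq2 without W1, 2 without replicate 4 of Pgld-1::TIR1 with ethanol, and 0 in the compared libraries with W1. For time, the compared libraries with W1 gave 1, 0 and 3 calls in the soma degron strain, the germline degron strain and Peft-3::TIR1. At an adjusted p of 0.01 there were 2 and 3 calls for time in the degron strains, and 0 for the tag and for the difference. Without replicate 4 of Pgld-1::TIR1 with ethanol the germline degron strain had 4 calls for time. The cause of these changes was not tested. Leaving out a replicate number gave 1 to 2 calls with auxin and 2 to 3 with time in the soma degron strain, 3 to 5 with time in the germline degron strain, 4 to 7 in Pgld-1::TIR1, 6 to 8 for auxin against 36 h, 0 to 0 for the tag at 132 h and 0 to 1 for the difference. The replicate block with W1 ended the call of *lin-35* with time in the germline degron strain (adjusted p = 0.0712), leaving 6 there, and changed no other call named here. The 2 library exclusions were chosen after seeing the data.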
